A study of Mus musculus with 10 samples.

Results

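The CITED, TOX and TSHZ genes encode 3 small families of transcriptional regulators, and their RNA was measured in mouse vagal sensory neurons. The 10 genes are Cited1, Cited2, Cited4, Tox, Tox2, Tox3, Tox4, Tshz1, Tshz2 and Tshz3, of 24421 rows in the count tables. Cited1, Tox3 and Tshz1 were picked because they differed between jugular and nodose neurons in these pools, so their difference between the ganglia is a description and carries no test. The other 7 genes, called the relatives below, were taken by family name alone and keep the p-values of fits to all genes.

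RNA from pools of single neurons was sequenced in 5 groups of 2 pools. The neurons came from the rostral (jugular, neural crest) or the caudal (nodose, placode) end of the fused vagal ganglion. In the Trpv1 selection they were picked by the red reporter of Trpv1-tdTomato mice, in which a Cre from the Trpv1 gene switches on tdTomato under the CAG promoter at ROSA26, so a cell that once expressed Trpv1 stays red. This selection has Trpv1-tdTomato-positive nodose and jugular pools of 30 cells and Trpv1-tdTomato-negative nodose pools of 15 cells, from 2 mice in all. The capsaicin selection used wild-type mice, whose dissociated neurons went through calcium imaging with 10 μM α,β-methylene ATP, a P2X receptor agonist, and with 1 μM capsaicin, the TRPV1 agonist. The capsaicin-responsive nodose pools (14 and 15 cells) responded to both agonists, and the capsaicin-responsive jugular pools (15 and 16 cells) responded to capsaicin alone. Strain, sequencing core and depth change with the selection, and these cannot be told apart. Nothing says that both pools of a group came from different animals, so a p-value measures the spread between pools, which may be technical.

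CITED proteins do not bind DNA themselves. They attach to the histone acetyltransferases p300 and CBP, and through these they act as coactivators of factors such as AP-2 or compete with the hypoxia factor HIF-1. TOX proteins carry an HMG box, a domain that binds and bends DNA. TSHZ proteins, relatives of the fly homeotic protein Teashirt, carry zinc fingers and a homeodomain and mostly act as repressors during development.

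The promoters are shown for Cited1 and Tox3, which were high in jugular pools, and for Tox2, the relative with the largest fitted log2 fold change between the ganglia in the Trpv1 selection. Each line gives the 250 bases before the transcription start listed by RefSeq on GRCm38.p6, read 5′ to 3′ on the gene's strand. Capitals mark matches on either strand to the GC box (GGGCGG), the TATA box (TATAAA), the CCAAT box (CCAAT), the AP-2 motif (GCCNNNGGC) or the core of the cyclic AMP element (TGACG), and adjoining matches run together.
Cited1, chrX:102252182-102252431, minus strand: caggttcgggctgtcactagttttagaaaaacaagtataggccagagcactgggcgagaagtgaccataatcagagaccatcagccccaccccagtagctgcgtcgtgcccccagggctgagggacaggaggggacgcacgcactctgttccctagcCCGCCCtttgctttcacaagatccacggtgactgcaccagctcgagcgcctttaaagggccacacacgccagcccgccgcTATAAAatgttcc
Tox3, chr8:90348253-90348502, minus strand: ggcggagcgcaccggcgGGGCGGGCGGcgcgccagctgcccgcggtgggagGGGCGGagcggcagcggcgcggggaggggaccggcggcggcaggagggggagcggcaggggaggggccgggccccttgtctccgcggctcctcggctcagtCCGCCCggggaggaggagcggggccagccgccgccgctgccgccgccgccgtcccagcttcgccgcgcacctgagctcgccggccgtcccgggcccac
Tox2, chr2:163202877-163203126, plus strand: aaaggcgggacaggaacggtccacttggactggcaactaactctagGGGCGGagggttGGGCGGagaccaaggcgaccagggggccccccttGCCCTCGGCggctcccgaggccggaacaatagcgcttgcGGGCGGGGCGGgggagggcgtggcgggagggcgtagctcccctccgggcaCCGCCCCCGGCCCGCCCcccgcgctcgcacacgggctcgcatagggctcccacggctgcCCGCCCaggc

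The Cited1 window held a TATA box and a single GC box, and its GC content was 58%. The Tox3 window held 4 GC boxes and no TATA box at a GC content of 84.4%. The Tox2 window held 7 GC boxes and 2 AP-2 motifs, some of them overlapping, at 75.2%. Over all 32851 RefSeq windows of this length the median GC content was 52.4%, and 32.7% held a GC box, 12.4% a TATA box, 33.8% a CCAAT box, 13.7% an AP-2 motif and 17.8% the TGACG core. Windows were examined for 8 of the 10 genes, the one nearest to the gene's GENCODE start where RefSeq lists several. All 8 windows held a GC box, and 2 (Cited1 and Cited4) held a TATA box. The listed start of Tox3 lay 91 bases and that of Tshz2 504 bases from the GENCODE start. A match is a match of letters only.

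Pools of the Trpv1 selection had total counts of 148452506 to 167704327, and those of the capsaicin selection had 17666710 to 30810863. CPM is the count over DESeq2's size factor, scaled by the geometric mean total of the 10 pools, so that all pools share a single scale. A count of 3 was set as the floor for detection; it equals 0.118 to 0.176 CPM in capsaicin-responsive pools and 0.0116 to 0.0154 CPM in the others. Markers fitted the labels. Prdm12 and Tac1, genes of crest-derived sensory neurons, reached 22.2 CPM or more in every jugular pool and at most 0.767 CPM in every nodose pool. P2rx2, the ATP receptor subunit of placode-derived neurons, and Hoxb5 were at 61.4 CPM or more in every nodose pool and at most 0.235 CPM in every jugular pool. The capsaicin-responsive neurons were sorted in part by their response to a P2X receptor agonist, so P2rx2 is no independent check there. The study itself reported Prdm12 and Hoxb5 from these pools. Trpv1 was at 0.0348 and 0.0334 CPM in the Trpv1-tdTomato-negative pools and at 17.8 CPM or more in the other 8. All 5 markers of sensory neurons reached 10 CPM in a replicate of each group. The 4 macrophage markers were at 0 in all pools, and 3 endothelial markers at or below 0.0147 CPM summed. The 6 glial markers summed to 183 to 668 CPM in capsaicin-responsive pools and to 2261 to 3382 CPM in the others, where most was Apoe and Fabp7. Sox10, the defining glial factor, was at 10.2 and 2.24 CPM in the Trpv1-tdTomato-negative pools and at most 0.177 CPM elsewhere. The 4 fibroblast markers summed to at most 41.6 CPM, except 239 CPM in the first capsaicin-responsive jugular pool. Whether these cells contributed to the values below was not tested.

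**Figure D1:**
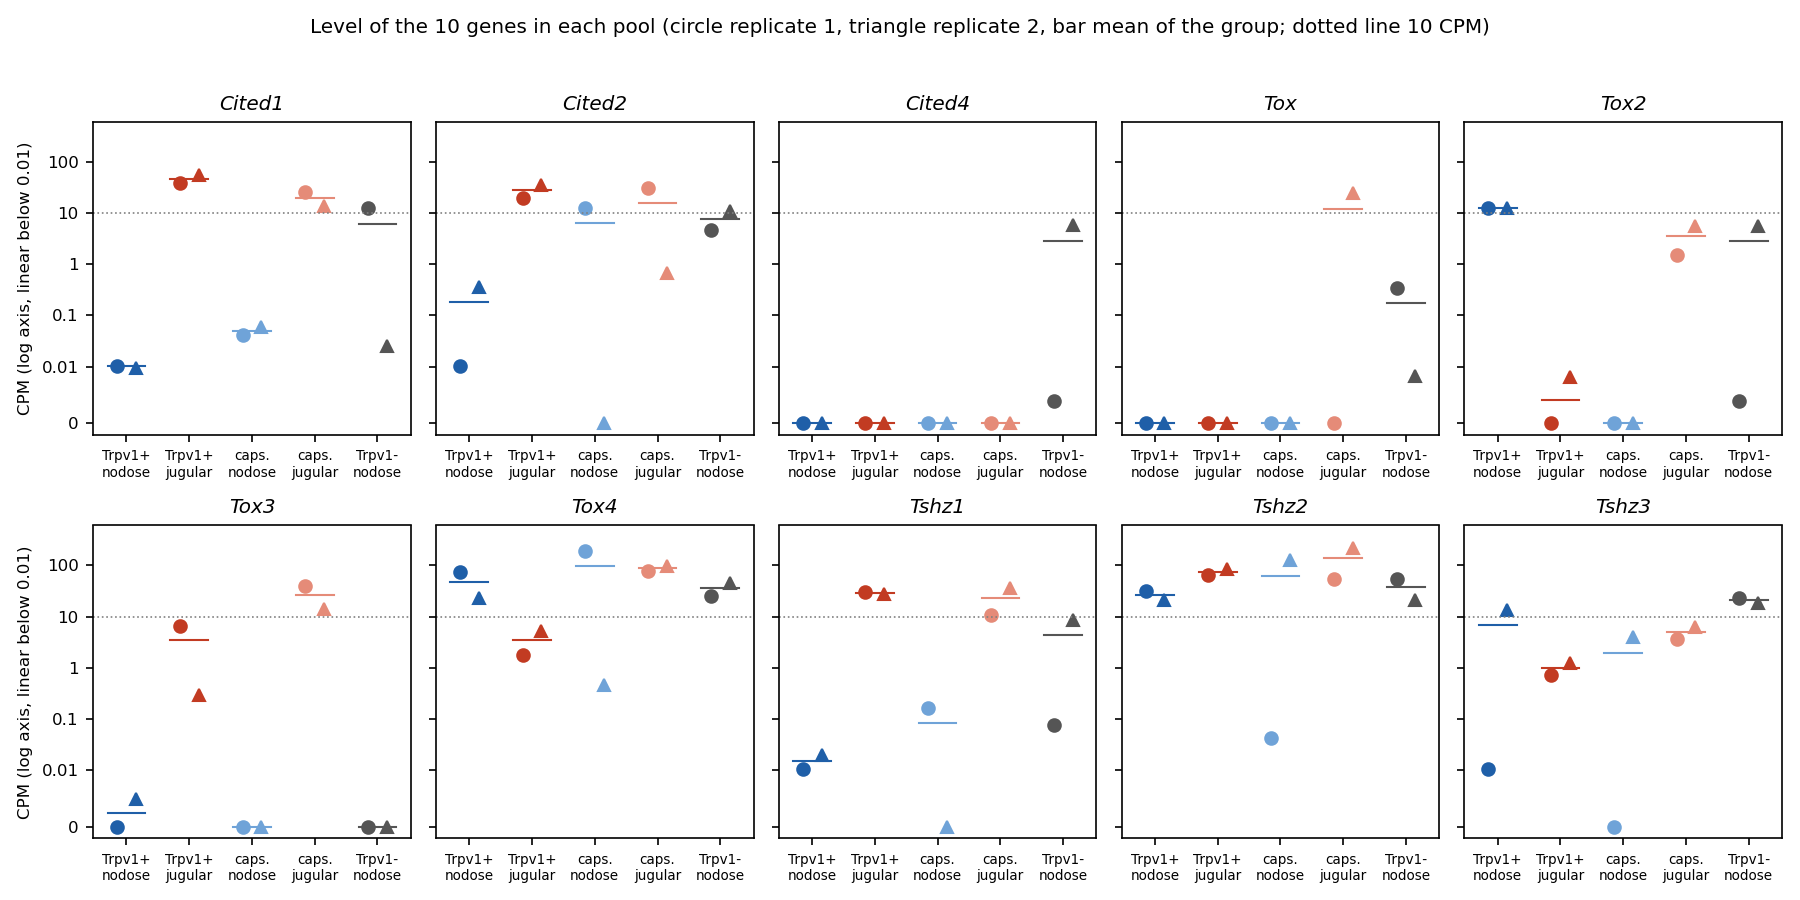
Level of the 10 genes in each of the 10 pools, in CPM on a log axis that is linear below 0.01, with circles for replicate 1, triangles for replicate 2 and a bar for the mean of the group. Cited1, Tox3 and Tshz1 sit low in all Trpv1-positive and capsaicin-responsive nodose pools, whereas Tox2 is high in the Trpv1-positive nodose pools (12.7 and 12.4 CPM) and at 0 in the capsaicin-responsive nodose pools.

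The 3 genes picked for their jugular expression are described first. Cited1, a coregulator known from AP-2 and estrogen receptor signalling and from the embryonic kidney, lies on chromosome X (102247381 to 102252181, minus strand, ENSMUSG00000051159.16; all coordinates are those of GENCODE vM21 on GRCm38). Its level was 37.9 and 54.4 CPM in the Trpv1-tdTomato-positive jugular pools and 25.6 and 13.6 CPM in the capsaicin-responsive jugular pools. The Trpv1-tdTomato-positive nodose pools held 2 counts each (0.0103 and 0.00981 CPM) and the capsaicin-responsive nodose pools 1 count each. Jugular over nodose, the ratio was 4618 among Trpv1-tdTomato-positive pools (95% counting interval, exact binomial, 1803 to 16950) and 406 among capsaicin-responsive pools (112 to 3361); such intervals cover counting error only. Every jugular pool lay above every nodose pool picked for Trpv1 or capsaicin.

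The Trpv1-tdTomato-negative nodose neurons were split. Their first pool held 3171 counts of Cited1 (12.3 CPM) and their second held 6 counts (0.025 CPM). Both were below every jugular pool on this scale, the lowest of those being at 13.6 CPM. With another scaling (TMM) the first was at 17.4 CPM and the second capsaicin-responsive jugular pool at 14.3 CPM. The first Trpv1-tdTomato-negative pool was thus close to the lower capsaicin-responsive jugular pool. In that nodose pool Prdm12 was at 0.0193 CPM and Tac1 at 0.22 CPM. With 15 cells in a pool, fewer cells that express a gene and less RNA in each cell cannot be told apart, here or in the other pools.

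Tshz1, a factor of olfactory bulb interneurons and other developing neurons, lies on chromosome 18 (84011627 to 84087706, minus strand). Its level was 30.6 and 27.3 CPM in the Trpv1-tdTomato-positive jugular pools, the closest pair among the 3 picked genes. In the capsaicin-responsive jugular pools it was 10.6 and 35.9 CPM. The Trpv1-tdTomato-positive nodose pools held 2 and 4 counts and the capsaicin-responsive nodose pools 4 counts and 0. The ratio of jugular to nodose was 1918 (881 to 5227) among Trpv1-tdTomato-positive and 235 (91.5 to 864) among capsaicin-responsive pools. As with Cited1, a single Trpv1-tdTomato-negative pool was high, but it was the other one: the first held 20 counts (0.0773 CPM) and the second 2044 (8.53 CPM). In that second pool Prdm12 was at 0.0334 CPM and Tac1 at 0.221 CPM.

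Tox3, a TOX protein known for calcium-dependent transcription with CREB and CBP in neurons, lies on chromosome 8 (90247040 to 90348343, minus strand). It was at 6.52 and 0.291 CPM (1514 and 72 counts) in the Trpv1-tdTomato-positive jugular pools and at 39.2 and 13.9 CPM in the capsaicin-responsive jugular pools. Among the 6 nodose pools only the second Trpv1-tdTomato-positive pool held a read, a single count. The ratio in the Trpv1 selection was 1316, with a wide interval (236 to 52029) because it rests on that count, and in the capsaicin selection jugular pools were at least 177-fold higher than 3 counts per nodose pool. Tox3 was thus near 0 in the Trpv1-tdTomato-negative pools too, unlike Cited1 and Tshz1. It did not reach 10 CPM in either Trpv1-tdTomato-positive jugular pool, and of the 3 picked genes it alone falls short of that minimum there.

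Of the 7 relatives, none was called different between jugular and nodose neurons by edgeR's quasi-likelihood test in the Trpv1 selection. To be called, a gene had to pass an adjusted p (Benjamini-Hochberg) of 0.1, change by 2-fold or more and reach 10 CPM in both replicates of a group. Few genes of any kind passed this: 35 of 10990 tested, or 0.318% (15 higher in jugular and 20 in nodose), so that 0 of 7 is no result about the relatives. With DESeq2, the tool of the study's methods, 459 of 13281 genes were called (3.46%), and among them 3 relatives (Cited2, Tox2 and Tox4). Cited4 and Tox, with 0 counts in all 4 pools, could not be fitted. The groups did not overlap in Cited2, Tox2, Tox4 and Tshz2, 4 of the 5 relatives above 3 counts in a pool, beside 35% of all 14027 such genes. Tox2 and Tox4 were higher in nodose pools and Cited2 and Tshz2 in jugular pools.

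Cited2, which restrains HIF-1 by competing for p300 and is needed for the heart, adrenal and neural crest, lies on chromosome 10 (17723218 to 17725674). Its level was 19.7 and 35.9 CPM in the Trpv1-tdTomato-positive jugular pools and 0.0103 and 0.363 CPM in the matching nodose pools. Both jugular pools were far above both nodose pools. The log2 fold change (jugular over nodose) was 7.21 ± 2.75 (SE, n = 2 and 2 pools), with an adjusted p of 0.406 by edgeR and 0.00373 by DESeq2. In the capsaicin selection the groups overlapped, the jugular pools being at 30.3 and 0.667 CPM and the nodose pools at 12.5 and 0 CPM, and the log2 fold change was 1.43 ± 3.57 (edgeR adjusted p = 0.9999). Both Trpv1-tdTomato-negative pools, at 4.56 and 10.8 CPM, were above both Trpv1-tdTomato-positive nodose pools.

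Cited4, a further coactivator of AP-2 on chromosome 4 (120666572 to 120667820), was at 0 in 8 pools and held 1 count in the first Trpv1-tdTomato-negative pool. The second Trpv1-tdTomato-negative pool held 1378 counts (5.75 CPM). That single pool of 15 neurons carried nearly every read of the gene. Per kilobase of exon it then made up 51.2% of the summed CITED level of that pool, with Cited2 at 48.7%.

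Tox2, a TOX protein studied mostly in lymphocytes, lies on chromosome 2 (163203125 to 163324170) and shares no exon with another gene. It was at 12.7 and 12.4 CPM in the Trpv1-tdTomato-positive nodose pools, a close pair, and the matching jugular pools held 0 and 2 counts. The ratio of nodose to jugular was 3011 (833 to 24867), and the fitted log2 fold change (jugular over nodose) was -11.39 ± 3.39, with an adjusted p of 0.321 by edgeR and 7.13e-07 by DESeq2. In the capsaicin selection the order was turned. Both nodose pools were at 0 and the jugular pools were at 1.53 and 5.67 CPM, at least 24.0-fold above 3 counts per pool, with an adjusted p of 0.352 by edgeR. DESeq2 gave an adjusted p of 0.0308 there, but no pool reached 10 CPM, so the call rule was not met. The Trpv1-tdTomato-negative nodose pools held 1 count and 5.6 CPM.

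Opposite directions without overlap in the 2 selections were seen in 489 of 10867 genes (4.5%), and the same direction in 1057 (9.73%). The difference between the selections was tested as the interaction of ganglion and selection over the 8 jugular and nodose pools. For Tox2 the interaction on the log2 scale was 22.86 ± 6.62, with an edgeR p of 0.00811 before adjustment and 0.478 after it. For this term a call needed the adjusted p alone, with no minimum of fold or CPM. No gene of 11959 (0%) passed it by edgeR, and 1233 had an unadjusted p under 0.05, whereas DESeq2 called 2523 of 13170 (19.2%), with Tox2 (adjusted p = 1.44e-08) and Tox (0.0205, with counts in 1 of the 8 pools, at 24.5 CPM) among the relatives.

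Tox4, a subunit of a nuclear protein phosphatase 1 complex that acts on RNA polymerase II, lies on chromosome 14 (52279146 to 52296401). It was the only TOX gene above 3 counts in all 10 pools. The Trpv1-tdTomato-positive nodose pools were at 73.2 and 23.2 CPM and the jugular pools at 1.79 and 5.28 CPM, so jugular pools were lower without overlap. The log2 fold change was -3.75 ± 1.59, with an adjusted p of 0.464 by edgeR and 0.0985 by DESeq2. Both capsaicin-responsive jugular pools were high, at 77.97 and 98.3 CPM, and the nodose pools were at 193 and 0.468 CPM. Of its 6950 bases of exon, 1128 are shared with Mettl3 or Rab2b on the other strand, and the counting is not stated to have used strand, so part of its reads may belong to these genes.

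Tox, the founding member and a regulator of T cell development and exhaustion, lies on chromosome 4 (6686353 to 6991557, minus strand). It was at 0 in 7 of the 10 pools. The second capsaicin-responsive jugular pool held 587 counts (24.5 CPM) and the first held none. The Trpv1-tdTomato-negative pools held 89 and 2 counts. The gene was too low for edgeR's filter in every comparison. DESeq2 gave it an adjusted p of 1.97e-08 in the capsaicin selection and 4.42e-06 over both selections. Both values rest on the second capsaicin-responsive jugular pool alone, and the CPM minimum was not met, so the gene was not called.

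Tshz2, the gene of a further zinc finger protein of this family, lies on chromosome 2 (169633013 to 170071816) and was at 10 CPM or more in 9 of the 10 pools, more than any other of the 10 genes. The Trpv1-tdTomato-positive jugular pools were at 65.7 and 83.3 CPM and the nodose pools at 31.8 and 21.1 CPM. The jugular pools were higher without overlap, with a log2 fold change of 1.51 ± 0.85 (edgeR adjusted p = 0.644). The capsaicin-responsive jugular pools were at 54.9 and 219 CPM, and the nodose pools, at 0.0417 and 125 CPM, overlapped with them. Of its 7781 bases of exon, 5251 are shared with noncoding genes on the other strand, mainly Gm26883, so these reads may in part be theirs.

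Tshz3, known for cortical projection neurons, breathing circuits and ureter muscle, lies on chromosome 7 (36698118 to 36773553). It was at 0.0103 and 13.4 CPM in the Trpv1-tdTomato-positive nodose pools and at 0.724 and 1.25 CPM in the jugular pools, which lay between them. The capsaicin-responsive nodose pools were at 0 and 3.92 CPM and the jugular pools at 3.61 and 6.17 CPM. Its highest levels were those of the Trpv1-tdTomato-negative nodose pools, at 23.5 and 18.2 CPM. Both of these were above both Trpv1-tdTomato-positive nodose pools, with a log2 fold change (negative over positive) of 1.59 ± 2.71 and an edgeR adjusted p of 0.960.

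**Figure D2:**
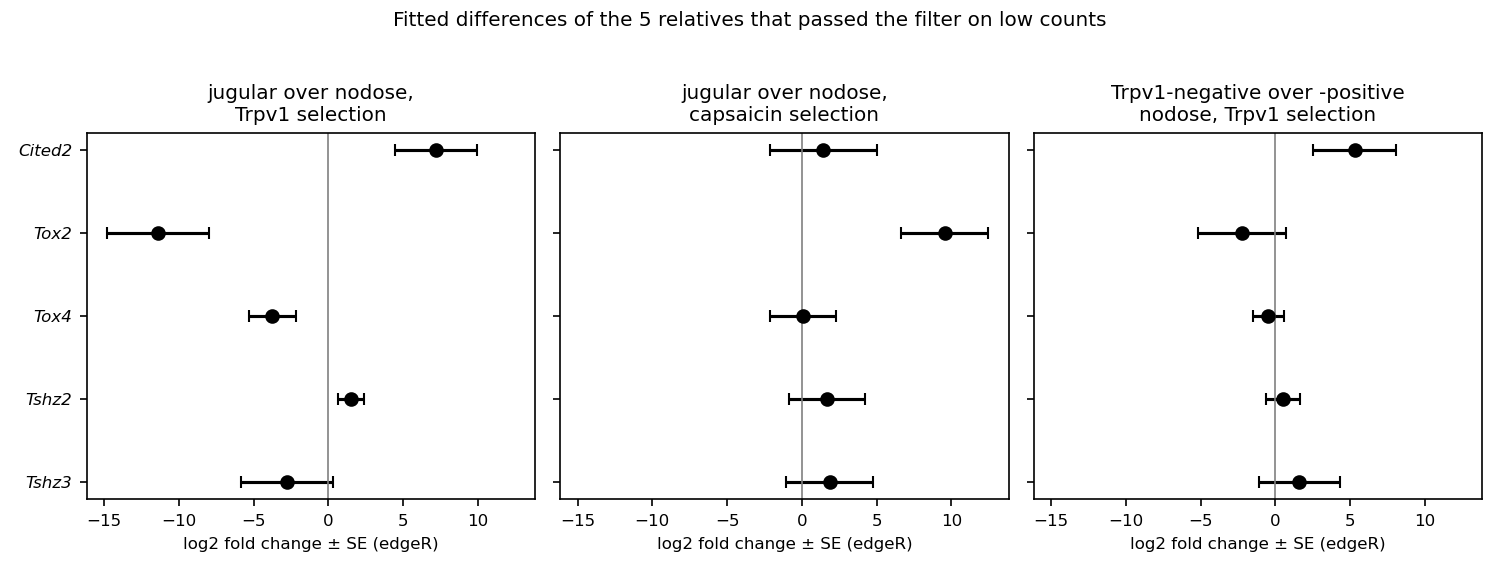
Log2 fold changes of the 5 relatives that passed the filter on low counts, with their standard errors, from edgeR's quasi-likelihood fits of 2 against 2 pools; positive values are higher in jugular pools (left and middle) or in Trpv1-tdTomato-negative pools (right). Tox2 is at -11.39 on the left and at 9.55 in the middle, the latter a fitted value against pools at 0, and no value passed the call rule.

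In the capsaicin selection edgeR called 0 of 8181 genes (0%), though 1150 had an unadjusted p under 0.05, and DESeq2 called 734 of 10748 (6.83%). None of the relatives was called by either tool. Tox2 was the only one whose groups did not overlap, of 6 relatives above 3 counts in a pool, beside 31.2% of 11568 such genes. Of the Trpv1-tdTomato-negative against the Trpv1-tdTomato-positive nodose pools, which share the positive pools with the jugular comparison, edgeR called 6 of 11386 genes (0.0527%) and DESeq2 320 of 14137 (2.26%), with 0 relatives among either. Cited2, Tox2 and Tshz3 did not overlap there, 3 of 7 relatives above 3 counts in a pool beside 34.1% of 14278 such genes. Of the relatives that passed edgeR's filter, Cited2 had the largest fitted difference, 5.30 ± 2.80 on the log2 scale. Its adjusted p was 0.639 by edgeR and 0.0619 by DESeq2, with the CPM minimum not met. Tox2 came next at -2.23 ± 2.91 (edgeR adjusted p = 0.924). DESeq2 alone fitted Cited4, at 11.47 ± 3.51 (adjusted p = 0.00973), and Tox, at 7.53 ± 3.21 (0.108). Neither of these reached 10 CPM in any of the pools compared. Over the 8 jugular and nodose pools with the selection as a covariate, edgeR called 69 of 11959 genes (0.577%) and DESeq2 1154 of 13774 (8.38%), again without a relative. Cited2 was at 4.28 ± 3.38 (jugular over nodose, edgeR adjusted p = 0.835), Tshz2 at 1.54 ± 1.40 (0.883) and Tox4 at -1.92 ± 1.82 (0.896) in that fit.

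**Figure D3:**
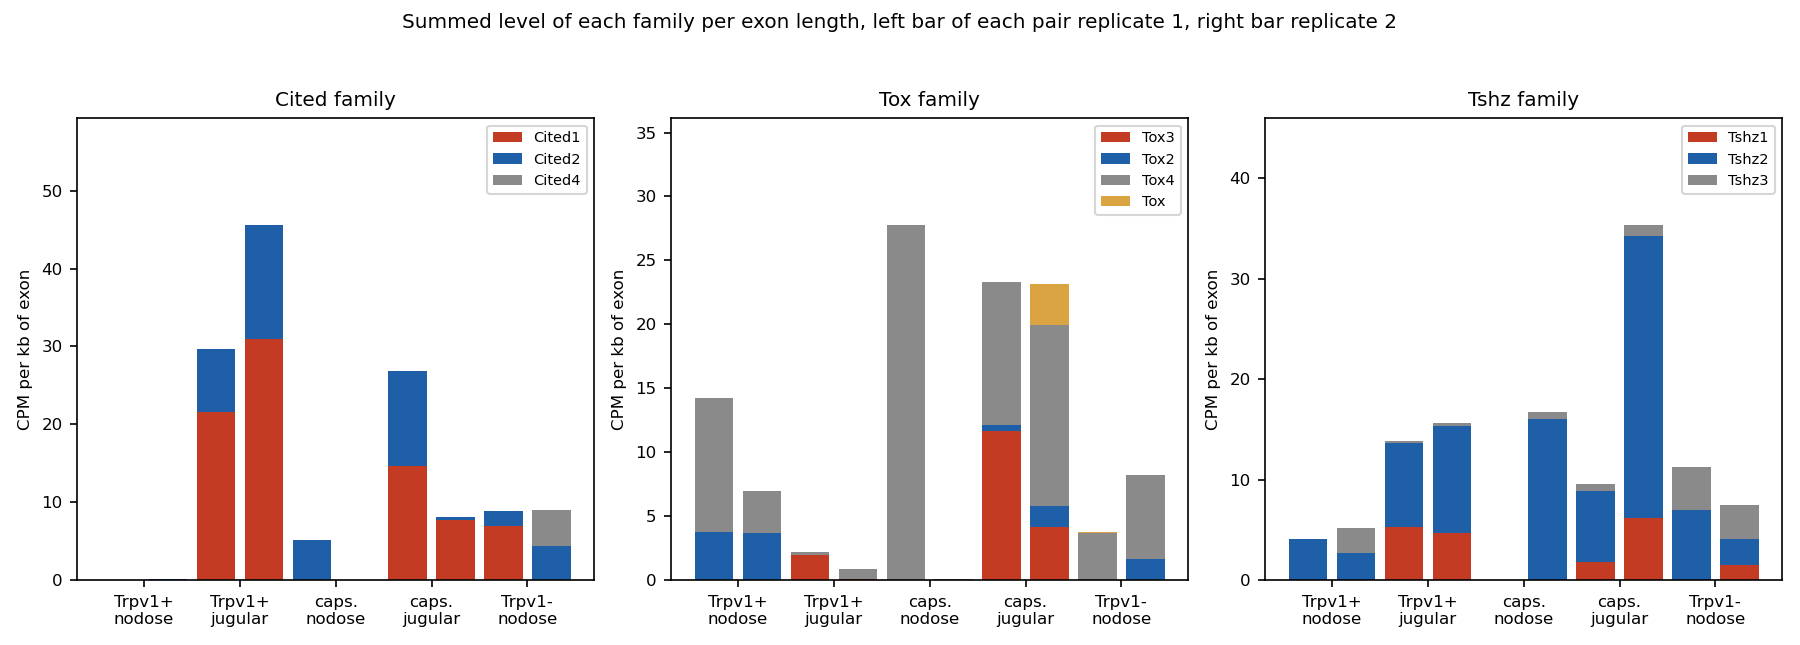
Summed level of each family in the 10 pools, in CPM per kilobase of exon, stacked by gene, with replicate 1 as the left and replicate 2 as the right bar of each pair. In the Trpv1-positive nodose pools the CITED bars are near 0 (0.0101 and 0.153), while Tox2 and Tox4 fill the TOX bars.

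Per kilobase of exon, the makeup of each family differed between pools. The CITED family summed to 29.6 and 45.6 CPM per kilobase in the Trpv1-tdTomato-positive jugular pools, of which Cited1 was 72.9% and 68.0%, and to 0.0101 and 0.153 in the matching nodose pools. In the capsaicin-responsive nodose pools it summed to 5.13 and 0.0334. The TOX family summed to 14.3 and 6.99 CPM per kilobase in the Trpv1-tdTomato-positive nodose pools, where Tox2 and Tox4 made up nearly all of it. It summed to 2.20 and 0.849 in the matching jugular pools, of which Tox3 was 88.3% and 10.2%. In the capsaicin-responsive jugular pools it summed to 23.3 and 23.2, with Tox4 at 48.1% and 61.0%; Tox3 made up nearly all of the rest in the first pool and 17.9% in the second. Tshz2 led the TSHZ family in both jugular groups, with 61.2% and 68.6% of it among Trpv1-tdTomato-positive and 74.0% and 79.4% among capsaicin-responsive pools, and Tshz1 came next. Tshz2 also led in both Trpv1-tdTomato-positive nodose pools (99.9% and 52.3%). It led too in the second capsaicin-responsive nodose pool (95.7%) and the first Trpv1-tdTomato-negative pool (61.6%). In the first capsaicin-responsive nodose pool the family summed to 0.0339, with Tshz1 at 84.2% on 4 counts. In the second Trpv1-tdTomato-negative pool Tshz3 led with 44.7%.

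**Figure D4:**
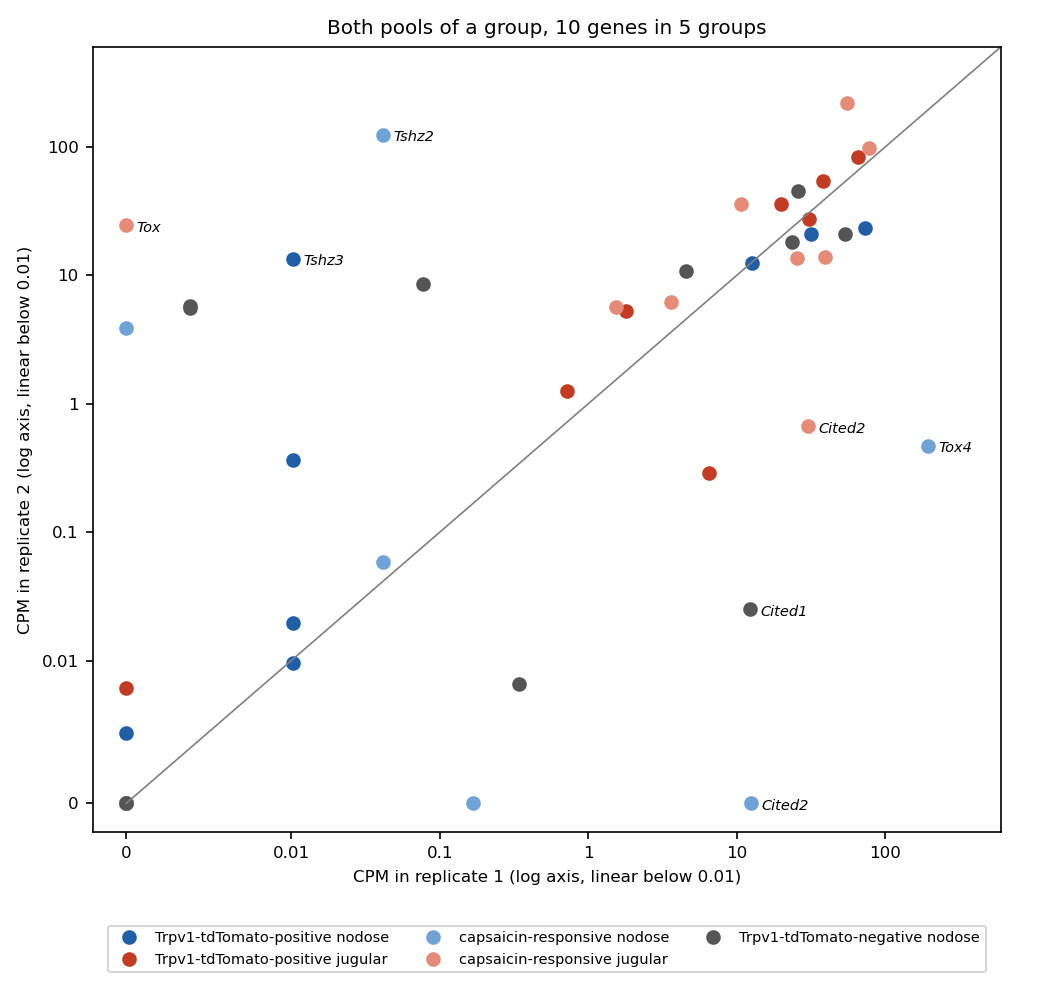
Level of the 10 genes in replicate 2 against replicate 1 of each group, in CPM on log axes that are linear below 0.01, with the line of equal levels. The 7 named points reached 10 CPM in a pool and stayed under 1 CPM in the other, 3 of them in the capsaicin-responsive nodose group.

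Both pools of a group often disagreed. A gene of the 10 reached 10 CPM in at least 1 pool of a group in 23 cases, and in 7 of them the other pool was under 1 CPM. In the capsaicin-responsive nodose group this held for all 3 cases (Cited2, Tox4 and Tshz2), beside 44.3% of 6443 genes there. In the capsaicin-responsive jugular group it held for 2 of 7 (Cited2 and Tox), beside 27.3% of 7746 genes. It held for 1 of 4 in the Trpv1-tdTomato-positive nodose group (Tshz3, beside 22.5% of 7535), 0 of 4 in the Trpv1-tdTomato-positive jugular group (beside 17.4% of 7804) and 1 of 5 in the Trpv1-tdTomato-negative group (Cited1, beside 14.6% of 8165).

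The genes with the levels most like those of Cited1, Tshz1 and Tox3 were looked for by Pearson's r of log2(CPM + 1) over the 10 pools, among 7503 genes with 10 CPM in both pools of a group. These r are descriptions over pools that share size factors and groups. Prmt10, a protein arginine methyltransferase, came first for Cited1 (r = 0.989), followed by Plcxd2, Tmem233, Ppp1r1a and Plek2. Prmt10 was at 43.5 and 43.3 CPM in the Trpv1-tdTomato-positive jugular pools, 18.8 and 13.9 CPM in the capsaicin-responsive jugular pools, 24.5 and 0.0209 CPM in the Trpv1-tdTomato-negative pools and at most 0.242 CPM in the others. Like Cited1, it was high in the first Trpv1-tdTomato-negative pool and low in the second. Such agreement, here and for the genes below, follows from ranking the genes on these same pools. For Tshz1 the first were Tspan2, a tetraspanin (r = 0.986), Ccdc68, Grik1, Stk24 and Ccdc94. Grik1, a kainate receptor subunit of small sensory neurons, was at 73.8 and 136 CPM in the Trpv1-tdTomato-positive jugular pools, 211 and 681 CPM in the capsaicin-responsive jugular pools and at 0.185 and 44.0 CPM in the Trpv1-tdTomato-negative pools, so it was high in the same second pool as Tshz1. For Tox3 they were Serpinb9, an inhibitor of granzyme B (r = 0.998), Cav1, Uap1l1, 1700003M02Rik and Fam178b. Serpinb9 was at 11.4 and 0.42 CPM in the Trpv1-tdTomato-positive jugular pools, with the same pool low as for Tox3, and at 61.4 and 25.6 CPM in the capsaicin-responsive jugular pools. Among the 3 picked genes themselves r was 0.743 for Cited1 and Tshz1, 0.653 for Tox3 and Tshz1 and 0.620 for Cited1 and Tox3, in part because all were picked for the same difference. With a pseudocount of 0.1 in place of 1, Tmem233, Ppp1r1a, Uap1l1, Stk24 and Ccdc94 were no longer among the first 5.

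The partners of the 3 families were looked at through fixed lists. Of 11 partners of CITED proteins (p300 and CBP, the AP-2 factors, HIF-1 subunits and SMADs), 9 passed the filter in the Trpv1 selection and edgeR called 0, with a median log2 fold change (jugular over nodose) of -0.08 beside -0.03 over all genes tested. Among capsaicin-responsive pools 6 passed and 0 were called (median -0.98 beside 0.02). The 4 with the highest mean level were Hif1a (0.0585 to 217 CPM over the 10 pools, median 20.3), Smad2 (0.125 to 157, median 33.8), Crebbp, which encodes CBP (0 to 69.2, median 5.87), and Arnt (0.0129 to 96.7, median 0.360). The AP-2 factors were low in pools with and without Cited1. Tfap2a reached at most 2.58 CPM and Tfap2b 0.157 CPM, and Tfap2c had 0 counts in all 10 pools.

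All 6 partners of TOX proteins passed the filter in the Trpv1 selection, 5 passed it among capsaicin-responsive pools, and edgeR called 0 in either (median -0.27 and -0.70). The catalytic phosphatase subunits Ppp1ca (104 to 578 CPM), Ppp1cb (27.02 to 395 CPM) and Ppp1cc (33.2 to 208 CPM), of the complex that holds Tox4, reached 10 CPM in all 10 pools, and Ppp1r10, its scaffold, reached 10 CPM in 7 (1.57 to 87.3 CPM). All 6 partners of TSHZ proteins passed in both selections, and edgeR called 0 (median -0.42 and -0.50). The chromatin protein gene Set (47.8 to 3905 CPM), Apbb1, which encodes the adaptor FE65 (80.5 to 264 CPM), and the corepressor Ctbp1 (19.4 to 133 CPM) reached 10 CPM in all 10 pools, and Hdac2 (0.468 to 162 CPM) in 9. In the Trpv1-tdTomato-negative against positive comparison, the fit to both selections and the interaction, edgeR also called 0 genes of these 3 lists. DESeq2 called Smad4 lower in jugular in the Trpv1 selection, and Epas1 higher and Hdac1 lower in Trpv1-tdTomato-negative pools. For the interaction, with no minimum of fold or CPM, it called Epas1 and Ctbp2.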

How the data were processed

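Counts of 10 pools of mouse vagal neurons were analysed. The authors aligned 50 bp paired-end reads to mm10 with TopHat2 2.0.9 and Bowtie2 2.1.0.0 and deposited raw counts per gene symbol made with HTSeq. The annotation used is not given in the sources used here. The files hold 27 date-like symbols, kept as separate rows. Groups and replicate numbers came from the labels, and cell numbers from the methods.

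The counts were tested with the quasi-likelihood test of edgeR 4.0.16 (TMM, filterByExpr, Benjamini-Hochberg over all genes tested) in R 4.3.3. SE is the log2 fold change over the square root of F. DESeq2 1.42.0 was an alternative. Other alternatives were DESeq2 size factors in edgeR, no filter on low counts, no CPM minimum, CPM scaled within a comparison, the replicate number as a block and leaving out each pool. Scripts were tested on simulated data. Coordinates came from GENCODE vM21. Groups were called not overlapping where the lowest pool of the higher group also exceeded 3 counts.

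The genes, partner lists and markers were chosen with earlier results of these data known. All 10 genes were named, partners where called by edgeR or among the 4 of highest mean CPM per list, and the 5 genes most like each picked gene. Partners called by DESeq2, the AP-2 factors and the genes sharing exons were named after their values were seen. Some of the markers are not reported here. Whether replicate numbers pair pools by animal is not stated. The correlation of same-numbered deviations was 0.00221, -0.0137 and -0.0126. These values show no pairing, but pools that often disagree cannot exclude one.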

Additional observations from a re-analysis of the deposited data

Results flagged for a closer look

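Tox2 moved in opposite directions in the 2 selections, with no overlap between pools in either. Mean CPM (jugular minus nodose) was -12.55 for Trpv1-tdTomato-positive and 3.60 for capsaicin-responsive pools. The interaction of ganglion and selection did not pass edgeR's adjusted threshold (adjusted p = 0.478) and passed that of DESeq2 (1.44e-08). Leaving out each pool in turn kept the sign of both differences. With no overlap between pools it could not do otherwise, so this adds no support.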

How the results depend on the processing

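The comparisons below are the jugular against nodose pools of the Trpv1 selection, the same in the capsaicin selection, the Trpv1-tdTomato-negative against positive nodose pools, the jugular against nodose pools of both selections, and the interaction, in this order. The interaction was called on the adjusted p alone, with no minimum of fold or CPM. The number of genes called was 35, 0, 6, 69 and 0 with edgeR, and 459, 734, 320, 1154 and 2523 with DESeq2. Without the filter on low counts it was 59, 122, 10, 222 and 102. With the replicate block it was 13, 20, 1, 41 and 0, though replicate numbers are not stated to pair the pools. Leaving out each pool in turn, which leaves 1 pool assumed to vary like the others, gave 0 to 0, 0 to 29, 0 to 0, 38 to 89 and 0 to 195. The other settings kept each count within 1.5 times. DESeq2's size factors in edgeR moved the median log2 fold change of all genes from 0.02 to -0.10 in the capsaicin selection, from 0.18 to 0.05 in both selections and from 0.44 to 0.09 for the interaction. The cause was not tested.

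No alternative turned a log2 fold change of Cited1, Tox3 or Tshz1. These genes were picked for this difference and their jugular and nodose pools did not overlap, so the kept sign adds no support. Tox3 in the Trpv1 selection fell from 10.12 to 6.59 without the first jugular pool. Tshz1 in the capsaicin selection rose from 8.24 to 12.19 without the first nodose pool. Of 100 alternative values of the relatives that kept all pools, 6 turned sign. These were Tshz3 under the replicate block (1.20 in the Trpv1 selection and 3.41 in both, against -2.77 and -0.51), Tox4 in the capsaicin selection with DESeq2 (-0.0705) or its size factors (-0.0705, against 0.0599) and Tshz2 for the interaction with the same settings (both -0.34, against 0.24). Of 140 values that left out a pool, 16 turned sign; leaving out each pool moved Tshz3 from -3.77 to 6.53 (Trpv1 selection), Cited2 from -2.999 to 11.53 and Tox4 from -0.95 to 8.05 (capsaicin selection), Tox4 from -1.08 to 0.55 and Tshz2 from -0.40 to 1.05 (negative against positive), Tox2 from -9.71 to 7.92 and Tshz3 from -1.66 to 3.13 (both selections), and Cited2 from -10.44 to 6.56, Tshz2 from -1.15 to 10.42 and Tshz3 from -4.51 to 14.87 (interaction). A further 6 of the 100 values passed the adjusted p threshold, all in DESeq2. Cited4 and Tox did not pass edgeR's filter and were not among the 100. With DESeq2 Tox passed the threshold in the capsaicin selection (adjusted p = 1.97e-08), in both selections (4.42e-06) and for the interaction (0.0205). Cited4 passed it for negative against positive (DESeq2 adjusted p = 0.00973). Neither gene met the CPM minimum, which did not apply to the interaction. Another scaling of CPM (TMM or plain totals) moved 41 of 200 pool values by more than the replicate SD. Without the first Trpv1-tdTomato-negative pool Cited1 in that group rests on 6 counts, and without the second Tshz1 rests on 20.

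The capsaicin-responsive pools had 17666710 to 30810863 counts, so a level under 0.176 CPM could not be told from 0 in all of them.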
